A study of Rattus norvegicus with 3 samples.

Results

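The genes of the autophagy machinery were measured by mRNA sequencing in motor cortex from 3 rats, with 1 library for each rat. Members were all genes of the 3 tables whose symbols name the numbered Atg genes, the Wipi, Wdr45, Ulk (1 to 3), beclin, Gabarap and Map1lc3 genes, or Sqstm1, Optn, Nbr1, Rb1cc1, Pik3c3, Pik3r4, Uvrag and Ambra1. This rule found 38 of the 30957 genes. No row carries the symbol Nbr1 or Becn2. A row named LOC498369 and described as similar to Nbr1 stood at 37.8, 38.2 and 42.1 FPKM in animals 32, 39 and 68, and RGD1563293, which RefSeq lists as a synonym of Becn2, was listed at 0; neither is a member. The animals, numbered 32, 39 and 68, are males of the outbred Sprague-Dawley strain and make up 1 group, labelled normal. Their treatment is given as none and their time as 8 weeks; there is no second group. Values are FPKM, fragments scaled to gene length and library size, so levels of different genes are compared per length. The inferred depth was 16550241, 15460924 and 17670986 fragments in animals 32, 39 and 68, so that 1 FPKM rested on 16.6, 15.5 and 17.7 fragments per kilobase.

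Macroautophagy encloses cytoplasm in a double membrane that is delivered to the lysosome. A kinase complex around ULK1 starts the process, a lipid kinase complex around beclin 1 marks the site with phosphatidylinositol 3-phosphate (PI3P), PI3P readers and lipid carriers extend the membrane, and conjugation enzymes attach ATG8 proteins to it, to which receptors such as p62 (the product of Sqstm1) bind their cargo. Neurons depend on this pathway, since they do not divide and form autophagosomes in distant axons, and loss of Atg5 or Atg7 in the mouse nervous system leads to neurodegeneration.

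Markers of neurons and of oligodendrocytes were present in all libraries; no list particular to the cortex was measured. The 5 neuronal markers summed to 2312, 2020 and 1619 FPKM in animals 32, 39 and 68, and the 5 oligodendrocyte markers to 2999, 4597 and 8020 FPKM. Animal 68 stood apart: its 5 choroid plexus markers summed to 7438 FPKM, against 9.85 in animal 32 and 626 in animal 39, and its 5 striatal markers to 207 FPKM, against 84.4 and 79.4 in the same animals. The 2 endothelial markers found (Pecam1 was not) summed to 51.7, 51.3 and 41.2 FPKM and the 3 haemoglobin genes to 638, 858 and 830 FPKM. Since each rat gave 1 library, the animal, its dissection and its library preparation cannot be told apart. In bulk tissue, fewer cells of a type and less RNA per cell cannot be told apart either.

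Nearly the whole machinery was detected in every animal. At least 1 FPKM in all 3 animals was reached by 37 of the 38 members (97.4%), against 40.7% of all genes in the tables. The exception was Atg9b, at 0.0653, 0.0466 and 0.0612 FPKM in animals 32, 39 and 68; its locus overlaps Nos3 on the other strand. The median of the 37 members was 17.0, 16.2 and 17.4 FPKM in the same animals. Over all 13378 genes whose mean reached 1 FPKM, called the tested genes below, the median was 9.82, 10.3 and 10.8 FPKM. A level that differed from this library median was tested for every tested gene with limma (moderated one-sample test on log2(FPKM + 0.1), Benjamini-Hochberg adjusted over all tested genes, threshold 0.05). In that test 25 of 37 members (67.6%) lay above the median, against 42.8% of all tested genes, and 6 (16.2%) lay below it, against 42.3%. The 6 below were Ulk3, Atg14, Atg5, Atg10, Atg16l2 and Atg4a, and the 6 that did not pass were Ambra1, Optn, Pik3r4, Atg7, Atg101 and Atg4d. The median depends on which genes are tested. With a filter of 5 FPKM, 33 members were left, of which 16 lay above (48.5%, against 40.8% of all tested genes) and 9 below (27.3%, against 39.9%), so the share above was closer to that of all genes. The setting called no filter left out only genes at 0 in all animals and kept 18929 genes. With it, 32 of 38 members lay above (84.2%, against 44.4%) and 3 below (7.89%, against 44.1%). Without animal 68, Atg101 (0.51 above on the log2 scale), Optn (-0.34) and Atg7 (-0.34) also passed, whereas Atg2a and Uvrag no longer passed without animal 32 or 39 and Atg2b without animal 39.

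**Figure D1:**
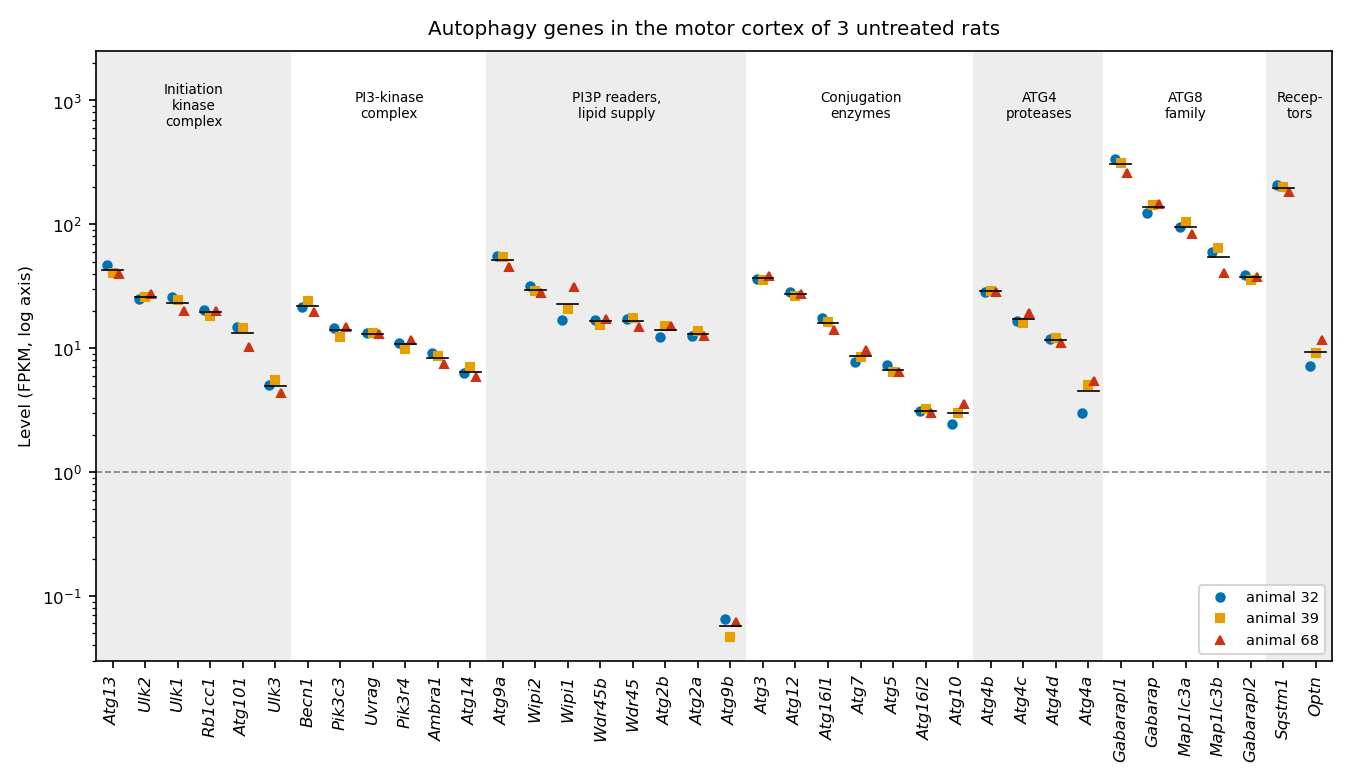
FPKM (log axis) of the 38 autophagy genes in animals 32 (circles), 39 (squares) and 68 (triangles), grouped by role and ordered by mean within each role; black lines are means and the dashed line is 1 FPKM. Gabarapl1 and Sqstm1 hold the highest means, and Atg9b alone lies below the line.

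The ATG8 family was the most abundant part of the machinery. These small ubiquitin-like proteins are attached to lipid on the growing membrane and bind receptors, and LC3 (Map1lc3) and GABARAP members form its branches. Gabarapl1 led all members, with 339.9, 314 and 258 FPKM in animals 32, 39 and 68 (304 ± 41.7, SD, n = 3), and ranked 116 among all 30957 genes. It lies on chromosome 4 of Rnor_6.0, from 163293724 to 163302858 on the plus strand. Gabarap, its close relative, stood at 124, 143 and 147 FPKM. Map1lc3a had 94.8, 104 and 84.1 FPKM. Map1lc3b, whose lipid-bound protein is the usual laboratory marker of autophagosomes, had 60.3, 63.9 and 40.8 FPKM, and so was lowest in animal 68. Gabarapl2 was the lowest of the family, at 39.3, 35.3 and 37.8 FPKM. The ranges of these 5 genes did not overlap in any neighbouring pair of this order. Together they summed to 658, 661 and 568 FPKM, which was 46.5, 47.1 and 44.2% of the FPKM of all members, and Gabarapl1 alone made up 51.7, 47.6 and 45.5% of the family sum. A row outside the rule, RGD1562165, described as similar to Gabarapl2, had 9.22, 8.89 and 8.21 FPKM, and how fragments that match both genes were assigned is not stated, so both levels are uncertain.

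The other ATG8 genes were tested against Map1lc3b as the log2 ratio within each animal, in 1 limma fit over all tested genes. Their ratios to one another were not tested. Of the 4 relatives, 3 were higher than Map1lc3b and 1 was lower, where 6.47% of all tested genes were higher and 84.8% lower. Gabarapl1 exceeded Map1lc3b 5.59-fold, with log2 ratios of 2.49, 2.30 and 2.66 in animals 32, 39 and 68. Its adjusted p in this limma fit was 2.61e-27, which is too small. The spread of Map1lc3b enters every ratio, and the prior variance was given infinite degrees of freedom, so a ratio's own spread had no weight. The reference also enters every ratio in the fits against other members described below, so their p-values may be too small as well. Their prior degrees of freedom were finite, from 2.60 to 6.35. With the prior taken from both genes of a ratio, an alternative added after the data were seen, the adjusted p (limma) was 6.52e-05 for Gabarapl1, 0.00145 for Gabarap (2.54-fold), 0.00254 for Map1lc3a (1.74-fold) and 0.0351 for Gabarapl2. The log2 ratio of Gabarapl2 was -0.53 (SD 0.38, n = 3), and it no longer passed without animal 32, without animal 39, or with a prior that ignores the level. Map1lc3a over Map1lc3b (0.80) no longer passed without animal 32.

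Of the 2 cargo receptors among the members, Sqstm1 was the higher, although Fkbp8, a receptor outside the rule, had a mean of 200 FPKM. The Sqstm1 product p62 links ubiquitin-tagged cargo to ATG8 proteins and is itself degraded with it. Sqstm1 had 207, 199.7 and 182 FPKM in animals 32, 39 and 68 (196 ± 12.8, SD, n = 3), rank 243 of all genes. Its locus, on chromosome 10 from 35704730 to 35716294 on the minus strand (Rnor_6.0), overlaps RGD1564036 (mean 3.41 FPKM) on the other strand. Optn, which encodes optineurin, a receptor for damaged mitochondria and bacteria that is mutated in some human amyotrophic lateral sclerosis, had 7.23, 9.22 and 11.6 FPKM. Sqstm1 was thus 21.1-fold higher than Optn (log2 ratio of Optn over Sqstm1 -4.40, SE 0.19, adjusted p = 8.36e-06, limma), with no overlap between animals; 97.7% of all tested genes were also lower than Sqstm1, and 1.26% were higher. The log2 ratio was -4.82, -4.42 and -3.96 in animals 32, 39 and 68, so the gap was smallest in animal 68.

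Promoter windows (250 bases before to 50 after the annotated start, first listed start of each gene) were taken from RefSeq, build GRCr8, where 34 of the 38 members matched by symbol; Atg9a, Becn1, Map1lc3a and Rb1cc1 did not. Shown are those of the leading ATG8 gene, the higher of the 2 member receptors and the member with a pair of E-boxes. Those of Wipi1 and Optn, from the 12 members highest in animal 68, are shown as well. Capitals mark the E-box core CACGTG, the GC box GGGCGG, the CCAAT box CCAAT and the TATA box TATAAA, each on either strand. The sequences are written 5′ to 3′ on the strand of the gene.
Gabarapl1 (chr4:164666082-164666381, plus strand): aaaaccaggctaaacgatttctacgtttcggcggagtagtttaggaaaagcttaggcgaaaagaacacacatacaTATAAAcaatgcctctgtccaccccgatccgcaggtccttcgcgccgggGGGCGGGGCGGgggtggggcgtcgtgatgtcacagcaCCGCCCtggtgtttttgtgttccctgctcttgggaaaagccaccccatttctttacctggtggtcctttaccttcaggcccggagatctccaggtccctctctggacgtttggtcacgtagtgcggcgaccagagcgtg
Sqstm1 (chr10:35037701-35038000, minus strand): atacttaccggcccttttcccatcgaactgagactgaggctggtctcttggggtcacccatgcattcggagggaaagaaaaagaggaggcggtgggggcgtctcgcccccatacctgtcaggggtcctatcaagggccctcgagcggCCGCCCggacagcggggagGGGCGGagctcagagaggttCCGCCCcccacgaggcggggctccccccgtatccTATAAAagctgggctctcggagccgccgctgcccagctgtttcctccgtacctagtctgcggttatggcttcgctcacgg
Atg3 (chr11:69159231-69159530, minus strand): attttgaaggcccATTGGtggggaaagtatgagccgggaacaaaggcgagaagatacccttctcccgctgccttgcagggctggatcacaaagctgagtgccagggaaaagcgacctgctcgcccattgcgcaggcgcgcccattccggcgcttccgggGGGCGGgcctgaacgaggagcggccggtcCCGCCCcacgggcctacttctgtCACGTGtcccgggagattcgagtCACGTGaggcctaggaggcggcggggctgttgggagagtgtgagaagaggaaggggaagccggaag
Wipi1 (chr10:95079244-95079543, minus strand): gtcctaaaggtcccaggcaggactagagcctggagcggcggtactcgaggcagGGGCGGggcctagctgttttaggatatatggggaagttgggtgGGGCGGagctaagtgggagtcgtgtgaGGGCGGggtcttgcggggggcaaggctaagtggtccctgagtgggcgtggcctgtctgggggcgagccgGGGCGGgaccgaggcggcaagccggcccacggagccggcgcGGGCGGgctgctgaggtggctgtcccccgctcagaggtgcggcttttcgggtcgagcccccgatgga
Optn (chr17:78118619-78118918, plus strand): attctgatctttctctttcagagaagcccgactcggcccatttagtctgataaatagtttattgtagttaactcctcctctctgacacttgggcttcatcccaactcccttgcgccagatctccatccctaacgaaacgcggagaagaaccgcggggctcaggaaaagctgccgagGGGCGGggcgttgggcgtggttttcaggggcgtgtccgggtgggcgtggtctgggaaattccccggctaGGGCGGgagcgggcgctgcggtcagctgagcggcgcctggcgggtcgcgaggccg

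The windows of the members were rich in G and C. Their median G + C content was 61% and their median number of CG dinucleotides 23.5, against 52.3% and 7 over 27457 genes with a window. A GC box was present in 23 of 34 members (67.6%), against 34.9% of all windows. The windows compared were those of all genes, detected in these libraries or not, and were not matched for G + C content. A CCAAT box was found in 9 members (26.5%, against 37.7%), and a TATA box in Atg13, Gabarapl1 and Sqstm1 (8.82%, against 14.3%). The TATA box of Sqstm1 began 30 bases before the start, and that of Gabarapl1 175 bases before it. Transcription factors of the TFEB family bind the CLEAR element at lysosomal and autophagy genes. No member window held the full palindromic element searched for, which 0.277% of all windows did. Its core CACGTG, which reads the same on both strands and lies within the longer element, was present in Atg3, Atg5 and Atg14 (8.82% of members, against 6.65% of all windows), in Atg3 at 39 and 16 bases before the start. A match describes letters and not binding.

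The 6 genes grouped with the initiation complex, the related kinase gene Ulk3 included, had a median of 22.7, 21.3 and 19.9 FPKM in animals 32, 39 and 68. The kinase genes Ulk1 (25.7, 24.4 and 19.96 FPKM) and Ulk2 (24.998, 25.7 and 27.2 FPKM) overlapped, and Ulk2 over Ulk1 did not pass (log2 ratio 0.16, SE 0.14, adjusted p = 0.328, limma), with the sign differing between animals. Atg13, the adaptor that holds the complex together, stood above both, at 47.0, 40.4 and 39.9 FPKM, and was 1.82-fold higher than Ulk1 (adjusted p = 0.00061, limma). It was the 1 of 5 genes higher than Ulk1, where 19.4% of all tested genes were higher and 65.9% lower. Atg101, the partner of Atg13, had 15.0, 14.7 and 10.2 FPKM and was lower than Ulk1 (log2 ratio -0.82, adjusted p = 0.00162, limma). Rb1cc1, which encodes the scaffold FIP200, had 20.5, 18.1 and 19.9 FPKM and did not pass against Ulk1 (-0.25, adjusted p = 0.141, limma), although it did without animal 68 (-0.38). Ulk3, a related kinase better known from hedgehog signalling, was lowest, at 5.03, 5.54 and 4.32 FPKM, and lower than Ulk1 (log2 ratio -2.21, SE 0.17, adjusted p = 8.65e-05, limma).

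Within the lipid kinase complex, Becn1 was the most abundant. Beclin 1, its product, is the scaffold on which the kinase and its targeting subunits assemble. Becn1 had 21.6, 24.1 and 19.6 FPKM in animals 32, 39 and 68 and exceeded each of the other 5 genes in every animal. All 5 passed as lower than Becn1 in the limma fit, where 65.1% of all tested genes were lower and 21.3% higher. Pik3c3, the catalytic subunit VPS34, had 14.6, 12.2 and 14.9 FPKM, and its regulatory subunit Pik3r4 (VPS15) 11.1, 9.85 and 11.6 FPKM. The ratio of Pik3c3 to Becn1 (log2 -0.64) no longer passed without animal 39. The subunits that direct the kinase differed in level. Uvrag, which directs it to endosomes, had 13.2, 13.2 and 13.0 FPKM, while Atg14, which directs it to sites of autophagosome formation, had 6.32, 7.06 and 5.82 FPKM, the lowest of the complex. Becn1 exceeded Atg14 by nearly the same factor in each animal, with log2 ratios of Atg14 over Becn1 of -1.76, -1.76 and -1.73 (adjusted p = 9.82e-06, limma, and 0.000183 with the prior from both genes). Ambra1, which binds beclin 1 and serves as an adaptor of ubiquitin ligases, had 9.11, 8.69 and 7.40 FPKM.

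**Figure D2:**
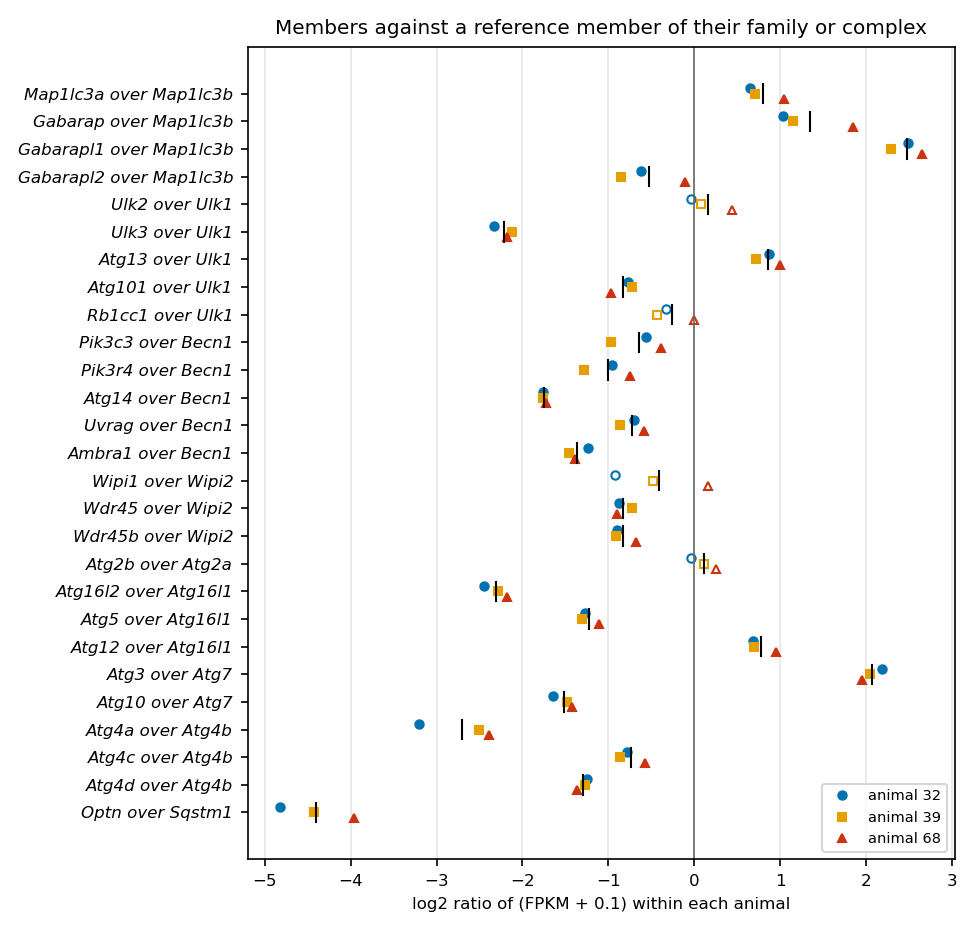
Log2 ratio of each gene to the named member of its family or complex within each animal, on FPKM + 0.1, for the 27 ratios tested; filled symbols passed the limma test, open symbols did not, and black lines are means. Optn over Sqstm1 lies farthest from 0, and the open ratios of Ulk2, Wipi1 and Atg2b cross it.

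Genes for PI3P readers, lipid carriers and the membrane protein ATG9 had a median of 16.9, 16.4 and 16.2 FPKM in animals 32, 39 and 68. Atg9a, a lipid scramblase on the vesicles that seed the membrane, was the highest, at 56.0, 54.6 and 45.1 FPKM. Its relative Atg9b was near 0 in all libraries, so no fold is given. Wipi2, the reader that recruits the conjugation machinery, had 31.9, 28.9 and 27.8 FPKM. Wdr45 and Wdr45b, which encode the readers WIPI4 and WIPI3, were both lower than Wipi2 (log2 ratios -0.83 each, adjusted p = 0.000564 and 0.000735, limma), as were 74.4% of all tested genes, while 15.7% were higher. Wdr45, an X-linked gene mutated in a human neurodegeneration with iron accumulation, had 17.3, 17.4 and 14.9 FPKM, and Wdr45b 17.0, 15.4 and 17.4 FPKM.

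Wipi1 changed its place relative to Wipi2 between animals. It had 16.8, 20.8 and 31.1 FPKM in animals 32, 39 and 68, so that it lay below Wipi2 in animals 32 and 39 and above it in animal 68. The log2 ratio of Wipi1 over Wipi2 was -0.92, -0.48 and 0.16, and it did not pass (adjusted p = 0.126, limma); without animal 68 it did (-0.70). The summed oligodendrocyte, astrocyte, microglial, striatal and choroid plexus markers were also highest in animal 68, and their part in this result was not tested. Wipi1 (chromosome 10, 97859727 to 97896525, minus strand, Rnor_6.0) also overlaps Arsg (mean 2.46 FPKM) on the other strand, and the strand of the fragments is not given in the sources used here. Atg2a (12.6, 13.9 and 12.5 FPKM) and Atg2b (12.3, 15.0 and 15.0 FPKM), whose products carry lipid into the growing membrane, overlapped, and their log2 ratio of 0.11 (SE 0.11) did not pass (adjusted p = 0.37, limma), where 35.3% of all tested genes were higher than Atg2a and 49.2% lower.

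Conjugation genes spread over a wide range. Atg3, the enzyme that transfers ATG8 proteins to lipid, was highest, with 36.0, 35.7 and 38.04 FPKM in animals 32, 39 and 68. Atg12, the ubiquitin-like partner of Atg5, had 28.5, 26.3 and 27.2 FPKM. Atg7, the activating enzyme shared by both conjugation systems, had 7.80, 8.56 and 9.72 FPKM, and Atg10, which transfers ATG12, 2.43, 3.01 and 3.56 FPKM. Atg3 exceeded Atg7 4.19-fold (log2 2.07, SE 0.12, adjusted p = 1.70e-05, limma, and 0.000152 with the prior from both genes; 47.1% of all tested genes were higher than Atg7), and Atg7 exceeded Atg10 2.86-fold (adjusted p = 0.000166, limma; 36.7% were lower). Levels within the complex that attaches ATG8 differed as well. Atg5 had 7.26, 6.47 and 6.46 FPKM, its scaffold Atg16l1 17.6, 16.2 and 14.1 FPKM, and the relative Atg16l2 3.14, 3.24 and 3.02 FPKM. Atg12 was higher than Atg16l1 (log2 0.78, adjusted p = 0.00128; 28.4% of all tested genes were higher), while Atg5 (-1.23, adjusted p = 0.000516) and Atg16l2 (-2.31, adjusted p = 0.00018) were lower (limma; 53.8% were lower).

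The ATG4 proteases trim ATG8 proteins before conjugation and release them afterwards. Atg4b, the main protease of LC3, was the highest of the 4 genes and the least variable, with 28.5, 29.2 and 28.7 FPKM in animals 32, 39 and 68. Atg4c followed at 16.6, 16.0 and 19.2 FPKM and Atg4d at 11.96, 12.02 and 11.1 FPKM. Atg4a, an X-linked gene whose product prefers GABARAP members, was lowest, at 3.00, 5.06 and 5.40 FPKM. All 3 were lower than Atg4b in the limma fit (log2 ratios -0.74, -1.29 and -2.70 for Atg4c, Atg4d and Atg4a, with adjusted p = 0.00101, 9.17e-05 and 0.000149), as were 74.4% of all tested genes, while 16.4% were higher.

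Over the 9 fits, 23 of the 27 ratios passed, 6 as higher and 17 as lower. Of all tested genes, 1.26% (against Sqstm1) to 47.1% (against Atg7) passed as higher. From 36.7% (Atg7) to 97.7% (Sqstm1) passed as lower. Most tested genes thus passed in every fit, and the count of passing ratios is not particular to the members. Of the 28 ratios measured, Atg9b over Atg9a included, 25 had 1 sign in all 3 animals, a share not counted over all genes. The same 6 higher and 17 lower ratios passed with the prior taken from both genes of a ratio. For the 19 that passed against members other than Map1lc3b, the adjusted p (limma) then ranged from 7.13e-06 to 0.0136 and was larger than in the planned fit for 18 of them. Errors of gene length and of mapping are shared by the animals and are not covered by these tests.

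Members had similar levels in the 3 animals. No member differed more than 2-fold between its highest and its lowest animal, where 15.2% of tested genes did. More than 1.5-fold was found for Wipi1 (1.85-fold), Atg4a (1.80-fold), Optn (1.61-fold) and Map1lc3b (1.57-fold), which are 10.8% of the 37 members, against 32.5% of all tested genes. The median SD on the log2 scale was 0.14 over members and 0.20 over all tested genes. Spread falls with level, and members are abundant: within 10 classes of level, 25 of the 37 members had an SD below the median of their class, and none lay above its 95th percentile. The steadiest were Uvrag (SD 0.016) and Atg4b (SD 0.017). A limma test of each variance against that of genes of like level gave 0 members at an adjusted p under 0.05 and 0 at an unadjusted p under 0.05, against 0 and 5.14% of all tested genes. The lowest unadjusted p was that of Wipi1 (0.0791; adjusted p = 0.878, limma). On simulated data the same test found 0% of 200 genes given a 100-fold larger variance, and so it says nothing of stability.

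**Figure D3:**
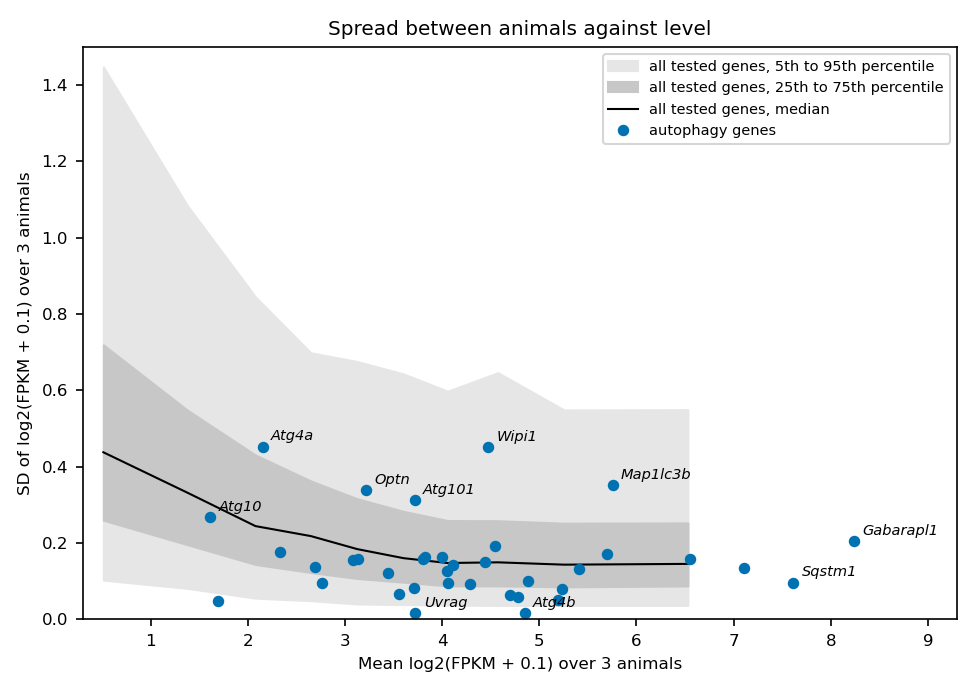
SD over 3 animals against mean, both of log2(FPKM + 0.1), for the 37 autophagy genes (points) and all tested genes in 10 classes of level (bands from the 5th to the 95th and the 25th to the 75th percentile, line at the median, drawn at each class's median level and not beyond the last). Wipi1 and Atg4a have the highest SD of the members, and Uvrag and Atg4b the lowest.

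The order of the animals ran both ways. In 7 members the level ordered the animals as 32 below 39 below 68 (18.9%, against 32.9% of all tested genes): Wipi1, Atg4a, Optn, Atg10, Atg7, Gabarap and Ulk2. In 11 members the order was the reverse (29.7%, against 21.8%), namely Gabarapl1, Sqstm1, Ulk1, Atg13, Atg101, Ambra1, Wipi2, Atg9a, Atg16l1, Atg5 and Uvrag. Animal 68 over animal 32 gave 1.85-fold for Wipi1 and 1.46-fold for Atg10, and 0.76-fold for Gabarapl1 and 0.679-fold for Atg101. Marker lists also differed between animals 68 and 32. All 5 oligodendrocyte markers had values that were higher in animal 68 than in animal 32 (summed, 2.67-fold), as were all 4 astrocyte markers (3.56-fold) and all 4 microglial markers (2.49-fold), while all 5 neuronal markers were lower (0.70-fold). The astrocyte markers summed to 199, 351 and 706 FPKM and the microglial markers to 31.2, 52.0 and 77.6 FPKM in animals 32, 39 and 68, and none of these markers was at 0. Their part in the levels of autophagy genes was not tested, and single animals allow no test of a difference between them.

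**Figure D4:**
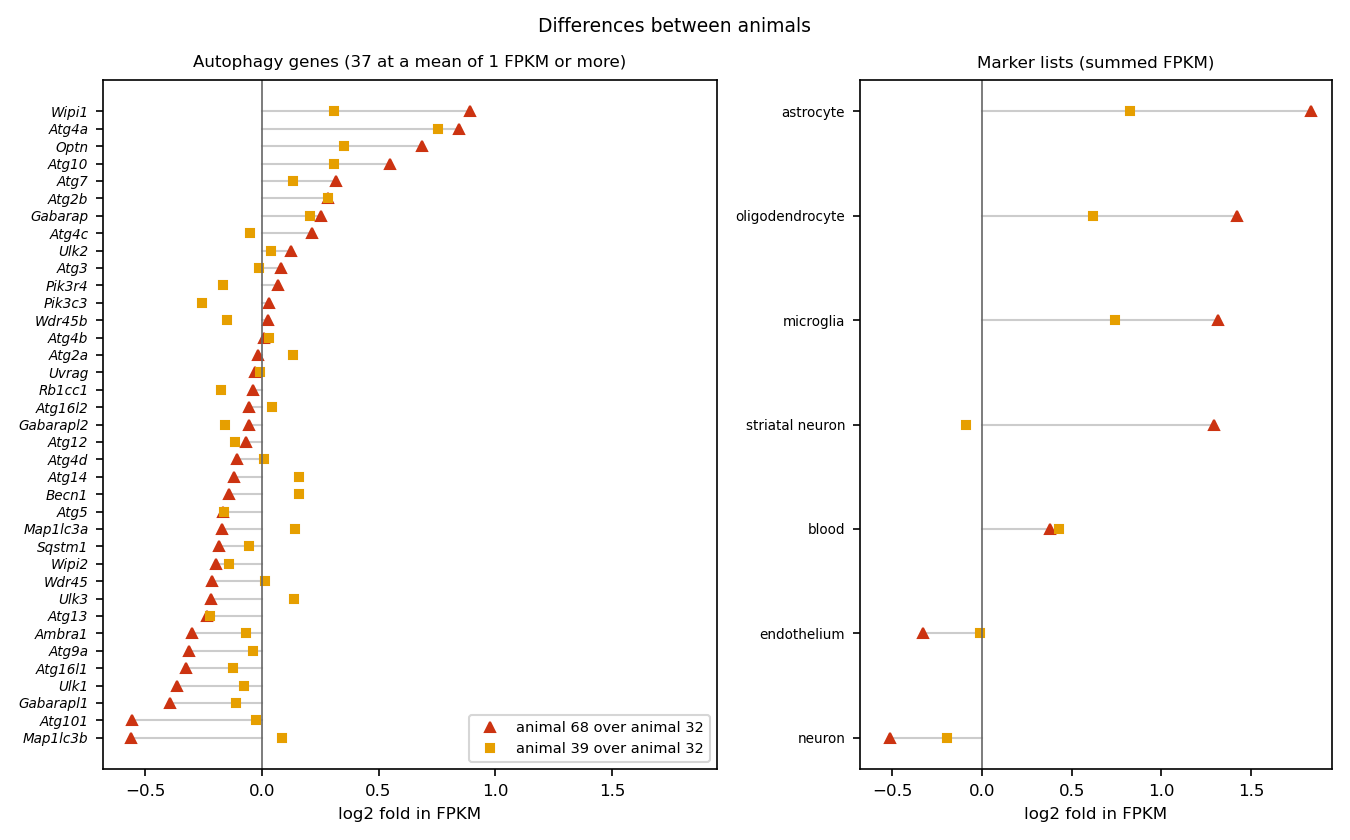
Log2 fold in FPKM of animal 68 (triangles) and animal 39 (squares) over animal 32 for the 37 autophagy genes (left) and for the summed FPKM of 7 marker lists (right; the choroid plexus list lies off the scale and is left out). Wipi1, Atg4a and Optn lie farthest to the right and Map1lc3b, Atg101 and Gabarapl1 farthest to the left among the autophagy genes.

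Other genes of the pathway were read from the same fit. Of 63 listed genes, 60 were found (Nrbf2, Rubcn and Retreg1 were not) and 57 were tested, of which 38 lay above the library median (42.8% of all tested genes) and 9 below it (42.3%). This split depends on the filter: with 5 FPKM, 26 of 54 lay above and 18 below (40.8% and 39.9% of all tested genes), and with none, 49 of 58 above and 3 below (44.4% and 44.1%). The counts by list that follow use the filter of 1 FPKM. Of 14 other receptors, 13 lay above and 0 below; with the filter of 5 FPKM 10 lay above and 2 below. They were led by Fkbp8 (198, 214 and 189 FPKM in animals 32, 39 and 68), Rtn3 (218, 187 and 174 FPKM) and Sec62 (64.6, 61.4 and 71.6 FPKM), which serve in turnover of mitochondria and of endoplasmic reticulum. Calcoco1 and Calcoco2 were listed at 0 in all libraries and were not tested. Of 13 genes of the nutrient-sensing kinase mTORC1 and its regulators, 10 lay above and 0 below (5 and 4 with the filter of 5 FPKM), with the small GTPase Rheb highest (84.8, 82.2 and 73.4 FPKM), then Rraga (53.9 ± 2.65 FPKM, SD, n = 3) and Tsc2 (34.7 ± 1.32 FPKM). Of 6 transcription factors tested, 0 lay above and 3 below (0 and 5 of 5 with the filter of 5 FPKM, 2 and 2 of 7 with no filter). Tfe3 had 11.1, 10.3 and 10.8 FPKM, Foxo3 10.3, 10.9 and 8.10 FPKM and Foxo1 4.15, 6.47 and 10.6 FPKM. For fusion with the lysosome, 10 of 16 genes lay above and 4 below (9 and 5 of 15 with the filter of 5 FPKM, 14 and 0 with no filter). The highest were the lysosomal membrane protein Lamp1 (162, 185 and 278 FPKM), Rab7a (131 ± 10.2 FPKM) and Vps41 (94.3 ± 4.36 FPKM). Among 8 genes of membrane supply and regulation of the lipid kinase, 5 lay above and 2 below (2 and 2 of 7 with the filter of 5 FPKM), led by Vmp1 (60.7 ± 4.76 FPKM), Tmem41b (27.5 ± 3.40 FPKM) and Wdfy3 (18.2 ± 3.06 FPKM).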

How the data were processed

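Motor cortex RNA of 3 rats was sequenced as 1 mRNA library per animal. The authors deposited FPKM values; per the series' own design text, gene fragments were counted and normalized and a Perl script gave the FPKM. Per the submitters' processing notes, HISAT2 2.0.4, StringTie 1.3.0 and Rnor_6.0 are listed, with no role stated. Neither annotation release nor strandedness is stated in these sources.

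Members were found by symbol. FPKM was analysed as log2(FPKM + 0.1), and genes whose mean reached 1 FPKM were tested. Tests used limma 3.58.1 in R 4.3.3 (eBayes with trend, Benjamini-Hochberg over all 13378 tested genes, or 13377 in the fits against 1 member), with a threshold of 0.05. The level of a gene was tested against the library median of the tested genes (prior degrees of freedom 2.89), and members were tested against a chosen member of their family. Each library carries its own animal number. The p-values rest on the spread between these 3 libraries combined with a prior variance fitted over all tested genes. In the fit against Map1lc3b the prior degrees of freedom were infinite, so only the prior variance counted. In the other fits against 1 member they ran from 2.60 to 6.35. No gene had the same nonzero value in different libraries. Depth was inferred from genes with loci up to 400 bases, where values fall mostly on whole multiples of 1 fragment; the share within 0.02 of a whole number was 85.0, 86.6 and 82.0% of these genes, on which the depth was also estimated.

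In data simulated on the 13378 tested genes, the level test recovered 93% and 92.5% of 200 genes set 2-fold above and below the median, and called 4% of 200 set at it. The simulated noise was independent between genes, with variances drawn from the model that limma itself assumes, so these shares hold under that model only. Shifts shared by many genes, as seen in the marker lists, were not simulated. The ratio fits were not simulated. Members, lists, families and tests were chosen with earlier results of these data known. All members are named, with the 3 highest genes of each other list and those listed at 0. LOC498369, RGD1563293 and RGD1562165 and the promoters shown were chosen after values were seen. Alternatives took a pseudocount of 1 or 0.01, no filter or one of 5 FPKM, another scaling, centre or prior, or left out each animal. Genes at 0 in all animals stayed out with no filter as well. All animals form 1 group, so no groups were compared. Python 3.11.15 with pandas 2.3.3 and numpy 2.4.6 was used for the rest.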

Additional observations from a re-analysis of the deposited data

How the results depend on the processing

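Of 37 members 25 lay above and 6 below the library median, against 16 and 9 of 33 with a filter of 5 FPKM (48.5% above, near the 40.8% of all tested genes, and 27.3% below, against 39.9%) and 32 and 3 of 38 with no filter (44.4% and 44.1% of all tested genes). Of 57 other pathway genes 38 lay above and 9 below, against 26 and 18 of 54 with the filter of 5 FPKM and 49 and 3 of 58 with none. The filter moves the median itself, and with it the side of members near it. With no filter the log2 distance from the median became positive for Ambra1 (0.736), Atg14 (0.35), Atg5 (0.424), Atg7 (0.785) and Optn (0.87). With the filter of 5 FPKM it became negative for Atg101 (-0.318), Atg16l1 (-0.0397), Atg2a (-0.328), Atg2b (-0.216), Atg4d (-0.48), Pik3c3 (-0.233), Pik3r4 (-0.592) and Uvrag (-0.313). The pseudocounts, both scalings and the library mean as centre changed no member's direction, although Atg7 passed with the mean (-0.28). With 1 animal left out, members above ranged from 22 to 26 and below from 6 to 8, other pathway genes above from 34 to 38 and below from 7 to 11, ratios higher from 5 to 6 and lower from 15 to 19, members past the variance test stayed at 0, members at 1 FPKM or more at 37, and the median of the members' means ran from 16.4 to 17.2 FPKM, against 16.6 with all animals. No ratio changed its direction under any alternative run. No paired analysis was possible because all 3 animals form 1 group. Depth limits low levels, since 1 FPKM rests on 15.5 to 17.7 fragments per kilobase.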
